A study of Mus musculus with 33 samples.

Results

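YTHDF2 is a cytoplasmic protein that reads N6-methyladenosine (m6A), the commonest internal base modification of mRNA. It binds methylated transcripts and recruits the CCR4-NOT deadenylase, which shortens the poly(A) tail and starts decay. Transcripts bound by YTHDF2 can be measured by immunoprecipitating the protein from a cell lysate and sequencing the RNA that comes with it, and a pull-down with non-specific IgG measures the RNA that sticks without the specific antibody. The comparison described here is the YTHDF2 pull-down against the IgG pull-down in WT cells. It rests on 6 of the 33 libraries of the series, 3 YTHDF2 (WT1, WT2 and WT3) and 3 IgG with the same numbers, chosen by their names in the count table and in the sample descriptions.

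The cells were neural stem cells cultured from mouse hippocampus at postnatal day 0.5, labelled Nestin-WT and untreated, and grown with bFGF (20 ng/mL) and EGF (20 ng/mL). The 3 libraries named Input that carry the same numbers entered the same fit. Separate libraries of the series measured m6A pull-down and input RNA (3 each, WT) and total RNA in a time course (0, 2 and 4 h) under 5 µM actinomycin D, which blocks transcription, in cells labelled Nestin-cKO for Ythdf2 or Nestin-WT (3 per genotype and time). In bulk RNA, a difference in every cell and a larger difference in some of the cells cannot be told apart. The labels do not say whether WT1 to WT3 came from separate animals, so p-values measure the spread between these libraries.

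Total counts in the YTHDF2 series ran between 8419106 and 23097887 per library, and the shallowest was IgG WT3. Sample titles and sample descriptions disagree on this series: the libraries that the descriptions and the count columns call YTHDF2 are called Input in the titles, and the reverse. The column names were used. Mitochondrial mRNAs took 0.69% to 0.823% of counts in the columns named YTHDF2, 0.823% to 1.11% in those named IgG and 2.6% to 3.4% in those named Input. Across 13087 genes, log2 CPM (counts scaled to library size) in the columns named YTHDF2 correlated with the Input of the separate m6A series at 0.880 to 0.910, IgG at 0.900 to 0.922, and the columns named Input at 0.924 to 0.950. Under the titles the contrast would set the columns named Input over IgG, which called 3892 genes higher and 3958 lower. Neural stem cell identity markers were present in every library, with a summed level of 7090.3 to 8651 CPM in the YTHDF2 pull-down, 7225 to 9509 CPM with IgG and 10909.5 to 13176 CPM in the input. Among markers of other cells, 11 of 12 microglial, 5 of 10 endothelial and 8 of 13 fibroblast genes were too low to be tested.

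A large set of transcripts was higher in the YTHDF2 pull-down than with IgG, by a wide margin. Calls in the lower direction had small differences, and their number depended on the processing. Of 14255 genes tested with edgeR's quasi-likelihood test and Benjamini-Hochberg adjustment, 3134 were higher in the YTHDF2 pull-down than with IgG (22%) and 1268 were lower (8.9%). The median log2 difference was 1.05 among the genes called higher and -0.44 among those called lower. A doubling was common in a single direction: 1675 genes were called higher with a log2 difference above 1 (11.8%), 313 of them above 2, whereas 25 were called lower with a log2 difference below -1. Of the genes called higher, 3114 were higher in each of the 3 pairs WT1, WT2 and WT3, with pair medians of 0.88, 1.18 and 1.05 on the log2 scale. Values of the 3 YTHDF2 and the 3 IgG libraries did not overlap for 4511 of the 14255 genes, among them 2636 called higher and 658 called lower. Against the input, genes called higher had a median of 0.91 in the YTHDF2 pull-down and -0.27 with IgG, and genes called lower -0.14 and 0.35; these values share libraries with the contrast. Over all genes the difference had a median of -0.077, a 10th percentile of -0.44 and a 90th percentile of 1.18.

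The 2 directions differed in how far they depended on the processing. Without the replicate number as a block, 2040 genes were higher and 47 lower. With ribosomal protein mRNAs as the scaling reference 2649 were higher and 4 lower, and with RLE size factors 2835 and 3503. The share of calls that were higher was 71.2% in the main fit, 97.7% without the block, 99.8% with the ribosomal reference, 44.7% with RLE and 60.3% with library size alone. RLE moved the median of all genes by -0.12 and the ribosomal reference by 0.21. Leaving out number 2 from all groups left 87 genes lower, and leaving out IgG WT2 alone left 194.

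**Figure D1:**
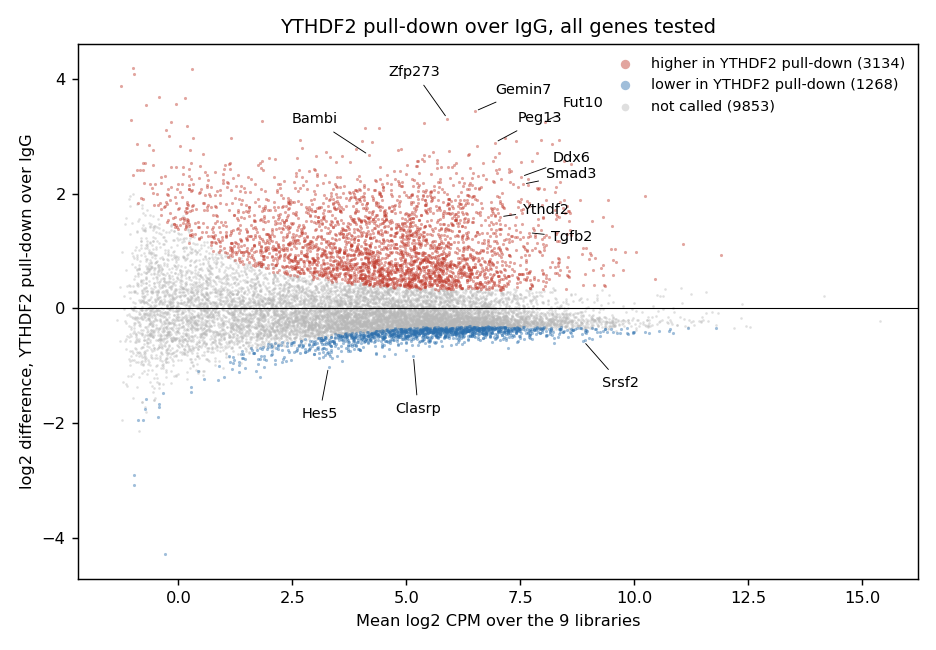
Each point is 1 of the 14255 genes tested, with its mean log2 CPM over the 9 libraries on the x axis and its log2 difference, YTHDF2 pull-down over IgG, on the y axis. Red points were called higher (3134), blue points lower (1268) and grey points not called (9853); the red cloud reaches above 2, while blue points from a level of 4 upward stay above -0.83.

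Calls differed by level of expression. In the lowest tertile of genes by mean level 16% were called higher and 2.53% lower, in the middle tertile 27.1% and 9.66%, and in the highest tertile 22.8% and 14.5%. Of 12957 protein-coding genes 22.7% were higher, and of 638 long noncoding RNAs 19%. Of 73 small nucleolar and small Cajal body RNAs 0 were higher by edgeR's adjusted p, 0 at an unadjusted p under 0.05 and 0 with DESeq2 or limma. They summed to 134 to 217 CPM in the YTHDF2 pull-down, 167 to 273 CPM with IgG and 40.2 to 51.8 CPM in the input. This is low for 73 genes and limits calls of small differences. These short RNAs guide modification of other RNAs in the nucleus, and their median log2 difference was 2.01 in YTHDF2 pull-down over input and 2.28 in IgG over input. Both pull-downs thus held more of them than the input did, with a median of -0.28 between YTHDF2 and IgG.

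The mRNA of Ythdf2 itself, which lies on chromosome 4 from 132184916 to 132212256 (GRCm38.p6), was among the enriched transcripts. It had 212, 249 and 232 CPM in the YTHDF2 pull-down, against 75.2, 76.3 and 77.7 CPM with IgG and 92.3, 95.8 and 85.8 CPM in the input. All 3 pull-down libraries lay above every IgG and input library. The log2 difference over IgG was 1.59 ± 0.12, adjusted p = 2.6e-10, and it was called in each of the 18 alternatives that keep the column names. In the separate libraries Ythdf2 was also higher in m6A pull-down over input, with a log2 difference of 0.27 (adjusted p = 0.00011), and it was lower in WT cells after 4 h of actinomycin D by a log2 difference of -1.78 (adjusted p = 0.00084). In the libraries labelled cKO, Ythdf2 at 0 h was higher than in WT by a log2 difference of 2.74 (adjusted p = 0.00027). The label names a loss of Ythdf2, and why its counts per gene were higher was not tested.

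Among called genes with a mean level of 4 or more (log2 CPM), the strongest enrichment was that of Gemin7, a subunit of the SMN complex that assembles spliceosomal ribonucleoproteins. The ranking took only genes with no clone name and with groups that did not overlap, so lack of overlap was fixed by selection. Gemin7 had 215, 224 and 199.97 CPM in the YTHDF2 pull-down, against 19.8, 18.9 and 20.6 CPM with IgG and 32.6, 36.3 and 46.4 CPM in the input. The 3 YTHDF2 values lay far above the others, and the log2 difference was 3.43 ± 0.15, adjusted p = 5.4e-14. Fut10, a fucosyltransferase gene, had 458, 718 and 669 CPM in the YTHDF2 pull-down, against 54.6, 64.9 and 72.3 CPM with IgG. Gypc, which encodes the membrane protein glycophorin C, had 64.6, 101 and 103 CPM in the YTHDF2 pull-down, against 8.26, 9.8 and 9.84 CPM with IgG. Fut10 and Gypc had log2 differences of 3.25 ± 0.14 and 3.23 ± 0.15. Cdkn2b encodes the cyclin-dependent kinase inhibitor p15, a known transcriptional target of TGF-beta signalling. It had 524, 667 and 398 CPM in the YTHDF2 pull-down, against 83.2, 65.8 and 56.9 CPM with IgG and 149.6, 147 and 124 CPM in the input, a log2 difference of 2.94 ± 0.15, adjusted p = 3.9e-13.

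Of the 12 genes with the largest enrichment, 4 were Zfp-named zinc finger genes. Such names made up 322 of the 14255 genes tested and 214 of the 3134 genes called higher. Zfp273 had 135, 149 and 159.8 CPM in the YTHDF2 pull-down, against 14.9, 15 and 14.9 CPM with IgG, a log2 difference of 3.30 ± 0.14, and Zfp493, Zfp790 and Zfp41 had log2 differences of 3.14 ± 0.21, 2.96 ± 0.14 and 2.92 ± 0.14. Such genes have close paralogs, and how shared reads were counted is not given in the sources used here. A pair of immune receptors was also on the list. Cd83, a membrane protein known from dendritic cells, had 15.7, 64.7 and 29.4 CPM in the YTHDF2 pull-down, against 1.94, 5.91 and 4.2 CPM with IgG. Tlr4, the receptor for bacterial lipopolysaccharide, had 37.4, 44.4 and 24.8 CPM in the YTHDF2 pull-down, against 6.8, 3.94 and 3.43 CPM with IgG. Cd83 and Tlr4 differed by 3.14 ± 0.19 and 2.91 ± 0.21. Tnfaip8l1 (log2 difference 2.90 ± 0.16) overlaps the gene Mydgf in the annotation, and whether counting used the strand is not given in the sources used here.

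Cox7a2l, a gene for assembly of respiratory supercomplexes, combined a high enrichment with the lowest m6A value of these 12. It had 451, 759.8 and 708 CPM in the YTHDF2 pull-down, against 89, 74.4 and 82.6 CPM with IgG and 207, 249 and 306 CPM in the input. The YTHDF2 values lay above the input and the IgG values below it, with log2 differences of 1.33 for YTHDF2 over input and -1.60 for IgG over input. The log2 difference of YTHDF2 over IgG was 2.93 ± 0.17, adjusted p = 2.0e-12. In the m6A pull-down it was lower than in the input, by a log2 difference of -0.30 (adjusted p = 2.3e-05). All 12 genes were called in each of the 18 alternatives with the column names.

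**Figure D2:**
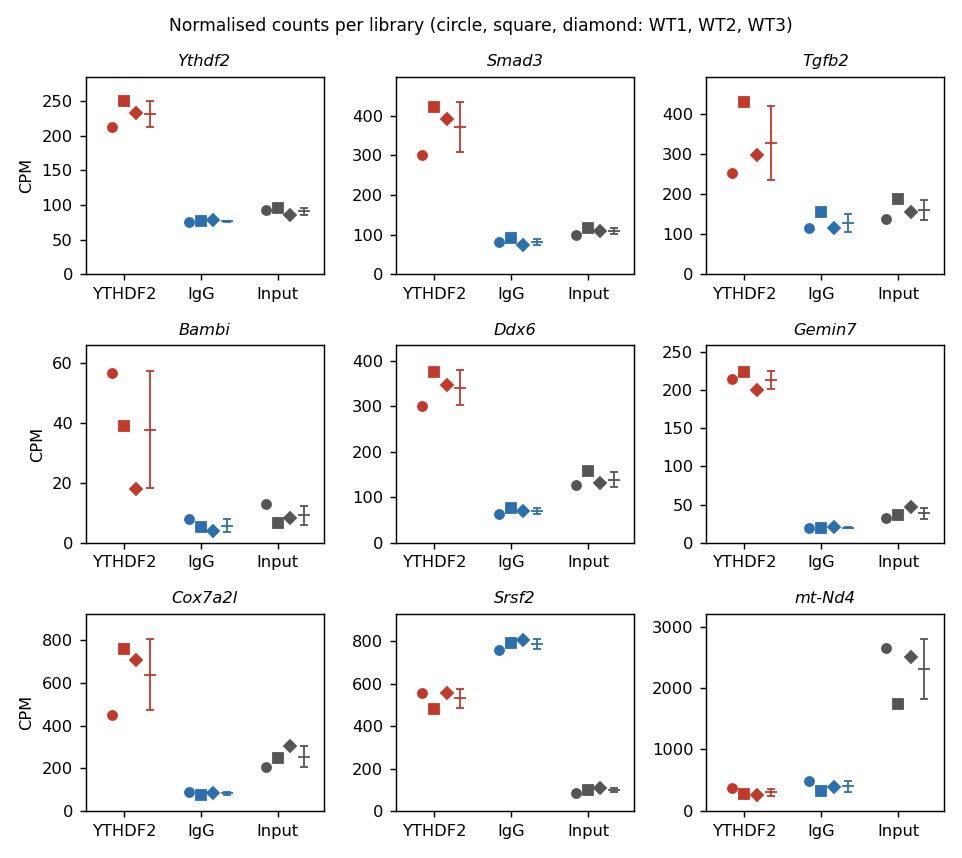
CPM of 9 genes in each library, with the YTHDF2 pull-down at the left of each panel, then IgG and input; circles, squares and diamonds are WT1, WT2 and WT3, and the bar is the mean ± SD (n = 3). The YTHDF2 values lie above all IgG values from Ythdf2 to Cox7a2l, Srsf2 has IgG above YTHDF2 with both above the input, and mt-Nd4 has both pull-downs far below the input.

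Genes called lower were close to the IgG level by comparison. Clasrp, which encodes a splicing-related SR protein, had 42.8, 40.3 and 18.2 CPM in the YTHDF2 pull-down, against 61.3, 67.6 and 44.8 CPM with IgG and 16.7, 14.4 and 13.6 CPM in the input. Both pull-downs lay above the input, and the log2 difference between them was -0.83 ± 0.16, adjusted p = 0.00024. Fsd1 had 14.8, 15.1 and 12.5 CPM in the YTHDF2 pull-down, against 21, 30.8 and 22.9 CPM with IgG, a log2 difference of -0.80 ± 0.15. Ybx1, which encodes the Y-box RNA-binding protein 1, had 53.8, 61.3 and 63.3 CPM in the YTHDF2 pull-down, against 76.5, 97.7 and 103 CPM with IgG, a log2 difference of -0.63 ± 0.12. The other 9 of the 12 genes ranked lowest were Vps33b, Coq6, Slc22a17, Rnpep, Pxk, Ap3d1, Gpaa1, Zyx and Ubxn2b. Their log2 differences lay between -0.77 (Vps33b) and -0.61 (Ubxn2b). They serve unrelated tasks, among them vesicle traffic (Vps33b, Ap3d1), coenzyme Q synthesis (Coq6) and focal adhesion (Zyx). None of the 12 kept its call with the ribosomal protein reference (adjusted p = 0.13 to 0.57). Without the replicate block Clasrp, Slc22a17, Rnpep, Gpaa1, Zyx and Ubxn2b lost the call (adjusted p = 0.095, 0.17, 0.053, 0.11, 0.055 and 0.054). Slc22a17, Rnpep, Ap3d1, Gpaa1, Zyx and Ubxn2b also lost the call when a library or a number was left out, with adjusted p up to 0.17, 0.11, 0.090, 0.11, 0.071 and 0.13.

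The series concerns components of TGF-beta signalling, in which ligands bind receptor kinases that phosphorylate Smad2 and Smad3, and these enter the nucleus with Smad4. Of 34 listed genes 27 were tested; Tgfb1, Acvr1c, Inhba, Smad6, Ltbp2, Nrros and Eng were not tested. In the YTHDF2 pull-down 9 of the 27 were called higher than with IgG (33.3%, against 22% of all genes) and 0 were lower (1 at an unadjusted p under 0.05, 2 with DESeq2, 0 with limma), with a median log2 difference of 0.25 against -0.077 for all genes. The median was 0.19, 0.38 and 0.32 in pairs WT1, WT2 and WT3. On leaving out a library or a number, 5 to 8 members were higher and 0 to 1 lower, with a median of 0.12 to 0.43. The number higher was 5 without YTHDF2 WT2 and 5 without number 2.

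Among the signal transducers, Smad3 was enriched most. Smad3, on chromosome 9 from 63646766 to 63757994, had 302, 422 and 392.3 CPM in the YTHDF2 pull-down, against 81, 91.3 and 75.2 CPM with IgG and 101, 118 and 110.0 CPM in the input. The 3 YTHDF2 values lay well above the other 6, and the log2 difference was 2.16 ± 0.13, adjusted p = 5.6e-12. Smad3 was also higher in the m6A pull-down than in its input (log2 difference 0.51, adjusted p = 1.6e-06) and lower in WT cells after 4 h of actinomycin D (-1.05, adjusted p = 0.0041). Its partners were not called. Smad2, the other receptor-activated transducer, had 46.2, 64.1 and 53.3 CPM in the YTHDF2 pull-down, against 46.7, 44.9 and 44.8 CPM with IgG, a log2 difference of 0.26 ± 0.14, adjusted p = 0.15. Smad4, the common partner, had 11.2, 12.8 and 11.8 CPM in the YTHDF2 pull-down, against 9.77, 9.7 and 10.6 CPM with IgG, a log2 difference of 0.25 ± 0.18, adjusted p = 0.28. The inhibitory Smad7 was low, with 5.45, 2.26 and 3.52 CPM in the YTHDF2 pull-down, against 2.73, 1.97 and 2.32 CPM with IgG, a log2 difference of 0.63 ± 0.31, adjusted p = 0.13.

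Of the ligand genes, Tgfb2, on chromosome 1 from 186622787 to 186709697, had 252, 431 and 298 CPM in the YTHDF2 pull-down, against 116, 155 and 117 CPM with IgG and 138, 187 and 154 CPM in the input. Its YTHDF2 and IgG values did not overlap, and the log2 difference was 1.32 ± 0.13, adjusted p = 9.5e-09. Tgfb2 was higher in the m6A pull-down (0.24, adjusted p = 0.00078), and its 4 h actinomycin D value was 0.24 (adjusted p = 0.42). Inhbb, an activin subunit, differed by 0.97 ± 0.28, adjusted p = 0.010, with overlapping values, and it lost the call in 8 of the 18 alternatives (adjusted p up to 0.21). Tgfb3 had a log2 difference of 0.10 ± 0.22, adjusted p = 0.75.

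Receptor genes showed no shared direction. The activin receptor Acvr2a had 13.1, 19 and 19.9 CPM in the YTHDF2 pull-down, against 6.5, 14.2 and 11.4 CPM with IgG, a log2 difference of 0.73 ± 0.19, adjusted p = 0.0055. Its values overlapped between groups, its span overlaps the gene Orc4, and the call held in 13 of 18 alternatives. The TGF-beta receptors were not called. The type I receptor Tgfbr1 had 4.99, 7.46 and 9.16 CPM in the YTHDF2 pull-down, against 8.32, 10.7 and 11.5 CPM with IgG, a log2 difference of -0.51 ± 0.20, adjusted p = 0.053. The type II receptor Tgfbr2 had 5.45, 5.2 and 4.71 CPM in the YTHDF2 pull-down, against 4.13, 3.69 and 2.54 CPM with IgG, a log2 difference of 0.56 ± 0.22, adjusted p = 0.058. The pair sits on opposite sides of 0, close to the threshold. Tgfbr1 was called lower in 7 of the 18 alternatives, for example with RLE size factors (adjusted p = 0.013), DESeq2 (0.014) and the 6 libraries alone (0.0097), and it had adjusted p up to 0.81 in the others. Tgfbr3, Acvr1b and Acvr2b had log2 differences of -0.060 ± 0.41, 0.44 ± 0.29 and 0.25 ± 0.33, also not called.

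The nuclear corepressors of SMAD signalling were all called. Tgif2 had 8.47, 13 and 9.73 CPM in the YTHDF2 pull-down, against 3.28, 6.55 and 3.76 CPM with IgG, a log2 difference of 1.20 ± 0.22, adjusted p = 0.00012. Tgif1, its paralog, had 105, 129 and 149 CPM in the YTHDF2 pull-down, against 65, 67.6 and 75.7 CPM with IgG, a log2 difference of 0.87 ± 0.12, adjusted p = 3.6e-06. Neither overlapped, and both held in each of the 18 alternatives. Skil differed by 0.55 ± 0.15, adjusted p = 0.0056, and Ski by 0.49 ± 0.16, adjusted p = 0.023. The calls of Skil and Ski held in 10 and 3 alternatives, and adjusted p reached 0.082 and 0.15 on leaving out a library or a number. Zfyve9, the SARA adaptor that brings Smad2 and Smad3 to the receptor, differed by 0.68 ± 0.22, adjusted p = 0.020, and its call held in 11 (adjusted p up to 0.28 without a library or a number).

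The remaining members were not called. The latency proteins Ltbp1, Ltbp3 and Ltbp4 had log2 differences of -0.19 ± 0.13, -0.28 ± 0.16 and -0.42 ± 0.24. The integrin subunits Itgav and Itgb8, whose dimer activates latent TGF-beta, had -0.14 ± 0.13 and 0.18 ± 0.13. The ubiquitin ligases Smurf1 and Smurf2 had 0.041 ± 0.21 and -0.16 ± 0.13, the activin antagonist Fst had -0.28 ± 0.27, and the SMAD inhibitor Pmepa1 had 0.036 ± 0.51. Without the replicate block 4 of the 9 calls remained, those of Smad3, Tgfb2, Tgif1 and Tgif2.

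**Figure D3:**
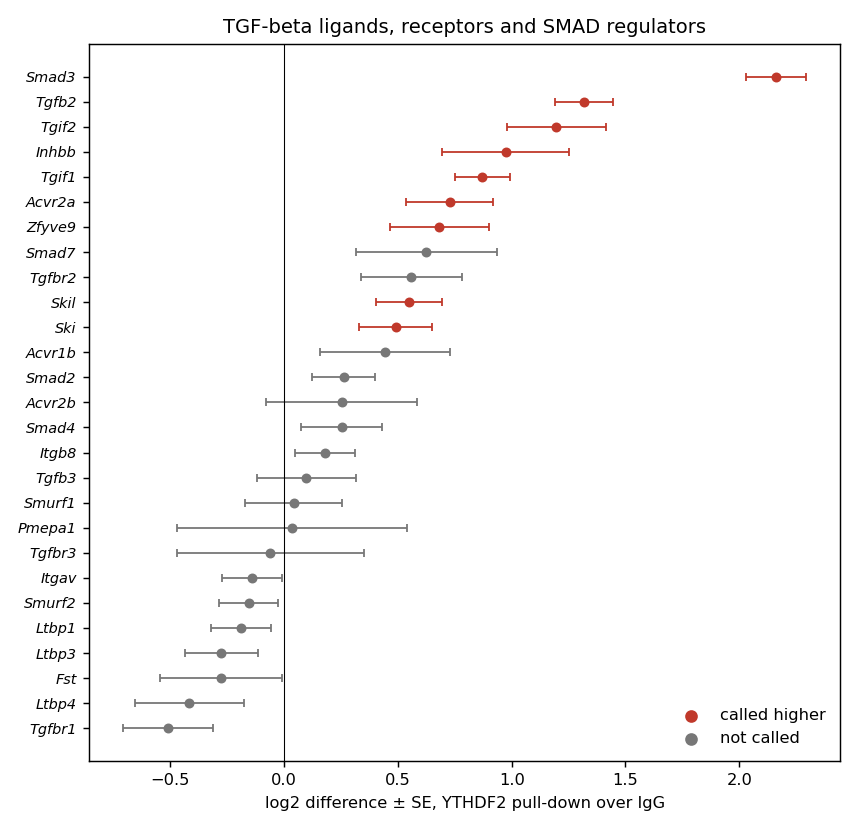
Log2 difference ± SE, YTHDF2 pull-down over IgG, of the 27 tested TGF-beta pathway genes, in order of size. Red points were called higher (9) and grey points were not called (18); Smad3 stands at 2.16 and Tgfbr1 at -0.51.

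In the related BMP pathway 4 of 19 tested members were called higher (21.1%, against 22% of all genes) and 1 lower (against 8.9% of all genes), with a median log2 difference of 0.21. The share higher was near that of all genes. Bambi, a pseudoreceptor that blocks TGF-beta and BMP receptors, had 56.5, 38.8 and 17.7 CPM in the YTHDF2 pull-down, against 7.95, 5.22 and 3.98 CPM with IgG and 12.8, 6.64 and 8.22 CPM in the input. The YTHDF2 values spread widely but did not overlap IgG, and the log2 difference was 2.67 ± 0.21, adjusted p = 2.7e-10. Bambi was also higher in the m6A pull-down (0.95, adjusted p = 0.0079). The type I receptor Acvr1 had 29.7, 47.6 and 40.9 CPM in the YTHDF2 pull-down, against 14.2, 13.6 and 15.7 CPM with IgG, a log2 difference of 1.43 ± 0.17, adjusted p = 2.4e-07. Smad1, a transducer of BMP signals, differed by 0.51 ± 0.13, adjusted p = 0.0035, a call lost without the replicate block (adjusted p = 0.18) and with the ribosomal reference.

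Of the Notch and Wnt components 12 of 38 tested members were called higher (31.6%, against 22% of all genes) and 4 lower (against 8.9% of all genes), with a median of 0.11. With a library or a number left out, the list had 8 to 12 members higher and 0 to 4 lower, with a median of 0.055 to 0.26. Fzd1, a Wnt receptor, had 54.9, 73.2 and 36.4 CPM in the YTHDF2 pull-down, against 19.2, 28.7 and 16.4 CPM with IgG, a log2 difference of 1.35 ± 0.14. Znrf3, the ubiquitin ligase that removes Frizzled receptors, differed by 1.20 ± 0.14, and Hey2, a Notch-driven repressor, by 1.57 ± 0.22. The 3 genes did not overlap between groups and were called in each of the 18 alternatives. Hes1 and Hes5, the effectors of Notch in neural stem cells, went in opposite directions. Hes1 had 18.5, 27.3 and 18 CPM in the YTHDF2 pull-down, against 11.1, 15.6 and 13.4 CPM with IgG (log2 difference 0.67 ± 0.16, adjusted p = 0.0023). Hes5 had 4.95, 8.81 and 2.85 CPM in the YTHDF2 pull-down, against 5.58, 27.2 and 5.75 CPM with IgG (-1.02 ± 0.23, adjusted p = 0.0014). Without IgG WT2 the log2 difference of Hes5 was -0.58 (adjusted p = 0.14) and that of Hes1 0.57 (adjusted p = 0.055).

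Growth factor receptors had 9 of 29 members called higher and 3 lower (31% higher and 10.3% lower, against 22% and 8.9% of all genes), with a median of 0.18. With a library or a number left out, the list had 7 to 11 members higher and 0 to 3 lower, with a median of 0.14 to 0.31. Ephb2 and Epha4, receptors for ephrins, differed by 1.39 ± 0.14 and 1.12 ± 0.18, and Igf1r, the receptor for insulin-like growth factor 1, by 0.77 ± 0.12. Igf1r had 115, 134 and 124 CPM in the YTHDF2 pull-down, against 70.1, 70.6 and 77.8 CPM with IgG, without overlap. Immediate early and other short-lived transcripts had more calls: 19 of 35 tested members were called higher (54.3%, against 22% of all genes) and 0 lower (against 8.9% of all genes), with a median of 0.37 and pair medians of 0.40, 0.38 and 0.44. Higher calls numbered 12 to 16 and lower calls 0 with a library or a number left out, with a median of 0.33 to 0.47. The number higher was 12 without number 2. At an unadjusted p under 0.05 the number lower was 0, with DESeq2 it was 1 and with limma 0. Spry4, a feedback inhibitor of ERK signalling, had 90.1, 152 and 85.3 CPM in the YTHDF2 pull-down, against 27.1, 51.1 and 29.6 CPM with IgG. Its relative Spry1 had 28, 46 and 29 CPM in the YTHDF2 pull-down, against 7.65, 13.1 and 7.96 CPM with IgG. Neither gene overlapped, and their log2 differences were 1.61 ± 0.13 and 1.84 ± 0.16. Egr2, a growth factor induced transcription factor, had 19.2, 88.1 and 42 CPM in the YTHDF2 pull-down, against 3.4, 20.4 and 16 CPM with IgG. WT2 was highest and WT1 lowest in each group, and the groups overlapped. The log2 difference of 1.96 ± 0.17, adjusted p = 2.5e-09, was called with the block but not without it (adjusted p = 0.092). Without the block 6 of the 19 calls in the list remained.

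The m6A machinery includes the Mettl3-Mettl14 writer complex with its adaptors, the erasers and the YTH readers. Of these genes 8 of 22 tested members were called higher (36.4%, against 22% of all genes) and 0 lower (against 8.9% of all genes), with a median of 0.016. Higher calls numbered 4 to 8 and lower calls 0 with a library or a number left out, with a median of -0.0090 to 0.068. The number higher was 5 without YTHDF2 WT2, 5 without IgG WT2, 4 without IgG WT3, 4 without number 2 and 4 without number 3. At an unadjusted p under 0.05, 3 members were lower, as with DESeq2, and 0 were lower with limma. Beside Ythdf2, the writer adaptors Rbm15b and Rbm15 were called. Rbm15b had 4.53, 5.56 and 6.98 CPM in the YTHDF2 pull-down, against 1.52, 1.87 and 2.21 CPM with IgG. Rbm15 had 14.4, 17.9 and 22.7 CPM in the YTHDF2 pull-down, against 9.11, 10.5 and 12.7 CPM with IgG. Neither overlapped. Their log2 differences were 1.61 ± 0.26 and 0.76 ± 0.16, and both held in the 18 alternatives. The other called members, chosen after their values were seen, included the readers Ythdf1 (0.71 ± 0.20) and Ythdf3 (0.56 ± 0.13), the writer-complex gene Cbll1 (0.42 ± 0.13) and Prrc2a (0.38 ± 0.14). Each of these 4 lost its call without the block (adjusted p = 0.087, 0.082, 0.081 and 0.12).

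Genes for CCR4-NOT and other mRNA decay factors, the machinery to which YTHDF2 hands its targets, had 8 of 50 members higher and 6 lower (16% higher and 12% lower, against 22% and 8.9% of all genes), with a median of -0.11. On leaving out a library or a number, 3 to 9 members were higher and 1 to 6 lower, with a median of -0.15 to -0.014. The number higher was 3 without YTHDF2 WT2, 5 without IgG WT1, 3 without IgG WT2, 5 without IgG WT3 and 3 without number 2. Ddx6, an RNA helicase of P bodies that represses translation and promotes decapping, had 299.9, 375 and 346 CPM in the YTHDF2 pull-down, against 63.4, 76.1 and 68.6 CPM with IgG and 128, 157 and 130.2 CPM in the input. The YTHDF2 values exceeded every other library, and the log2 difference was 2.29 ± 0.13, adjusted p = 1.3e-12. Tob1, which recruits CCR4-NOT, differed by 1.03 ± 0.13, and Dcp1a, a decapping cofactor, by 0.78 ± 0.14. All 3 were called in each of the 18 alternatives. Dcp1a was also higher in the m6A pull-down (0.25, adjusted p = 0.0065), while Tob1 had -0.22 there (adjusted p = 0.067).

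Neural progenitor transcription factors had 9 of 27 members higher and 1 lower (33.3% higher and 3.7% lower, against 22% and 8.9% of all genes), with a median of 0.25. On leaving out a library or a number, 1 to 11 members were higher and 0 to 1 lower, with a median of 0.12 to 0.31. The number higher was 2 without YTHDF2 WT2, 5 without YTHDF2 WT3, 1 without IgG WT2, 4 without IgG WT3, 1 without number 2 and 5 without number 3. The Hippo effector Yap1 had 20.2, 29.4 and 29.96 CPM in the YTHDF2 pull-down, against 11.8, 12.7 and 12.6 CPM with IgG, a log2 difference of 1.09 ± 0.16, adjusted p = 4.8e-06, called in each of the 18 alternatives. Sox4 and Nr2f1 differed by 0.58 ± 0.15 and 0.53 ± 0.14, with overlapping values and calls lost without number 2 (adjusted p = 0.12 and 0.19). Without the block 1 of the 9 calls in the list remained. Sox2, the defining transcription factor of neural stem cells, was not called (log2 difference 0.31 ± 0.12, adjusted p = 0.062).

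Markers of quiescent neural stem cells had 4 of 36 members higher and 2 lower (11.1% higher and 5.56% lower, against 22% and 8.9% of all genes), with a median of -0.13. Klf9, a transcription factor of quiescent cells, had 34.8, 67.8 and 42.2 CPM in the YTHDF2 pull-down, against 13.7, 16.7 and 13.3 CPM with IgG, a log2 difference of 1.69 ± 0.15, adjusted p = 2.2e-09. Foxo3, which maintains quiescence, had 12.8, 25.8 and 9.11 CPM in the YTHDF2 pull-down, against 3.58, 9.3 and 4.09 CPM with IgG, a log2 difference of 1.48 ± 0.20, adjusted p = 1.6e-06. WT2 was the highest Foxo3 value in both groups, which overlapped, and the pull-down was higher within each pair. Lpar1, a receptor for lysophosphatidic acid, differed by 1.55 ± 0.30, adjusted p = 0.00027, a call lost without the block (adjusted p = 0.17). Cell cycle and DNA replication genes lay on the other side, with 1 of 45 higher (2.22%, against 22% of all genes) and 9 lower (20%, against 8.9%) and a median of -0.25. The member called higher was Birc5, the survivin gene (0.52 ± 0.12, adjusted p = 0.0017), a call lost without the block (adjusted p = 0.39). Ccna2 and Tyms, for cyclin A2 and thymidylate synthase, differed by -0.57 ± 0.15 and -0.46 ± 0.13. None of the 9 lower calls remained without the block or with the ribosomal reference.

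Markers of differentiated neural cells included some strongly enriched transcripts. Of oligodendrocyte lineage markers 6 of 15 were higher and 1 lower (40% higher and 6.67% lower, against 22% and 8.9% of all genes), and their summed level was 1742 to 4023 CPM in the YTHDF2 pull-down, 1452 to 4566 CPM with IgG and 1723 to 6226 CPM in the input. Gpr17, a receptor of oligodendrocyte precursors, had 225, 171 and 49.6 CPM in the YTHDF2 pull-down, against 50.5, 40.9 and 12.4 CPM with IgG and 97, 53.8 and 17 CPM in the input. WT1 and WT2 were several times WT3 in every group, and the log2 difference was 2.08 ± 0.14, adjusted p = 2.1e-11, called in every alternative with the column names except the fit without the block (adjusted p = 0.056). Olig1 and Olig2, the lineage transcription factors, differed by 1.10 ± 0.13 and 1.03 ± 0.13. The call of Olig1 was lost without the block (adjusted p = 0.15), where 3 of the 6 higher calls in the list remained. The list had a median of -0.055, near the -0.077 of all genes, with 7 of 15 members above 0. Astrocyte markers had 4 of 12 higher and 1 lower (33.3% higher and 8.33% lower, against 22% and 8.9% of all genes). Their median was 0.024, with 6 of 12 members above 0, and 2 of the 4 higher calls remained without the block. The potassium channel gene Kcnj10 had 76.8, 59.8 and 83 CPM in the YTHDF2 pull-down, against 20.5, 13.9 and 19.1 CPM with IgG, a log2 difference of 2.04 ± 0.13, adjusted p = 1.5e-11. The gap junction gene Gja1 had 443, 548 and 453 CPM in the YTHDF2 pull-down, against 219, 178 and 198 CPM with IgG (1.29 ± 0.15). The water channel gene Aqp4 differed by 0.72 ± 0.15 with overlap, a call lost without the block (adjusted p = 0.14). The astrocyte list summed to 4949.9 to 5739 CPM in the YTHDF2 pull-down, 5009.6 to 5706 CPM with IgG and 6532 to 7288 CPM in the input. Neuronal markers had 2 of 15 higher and 1 lower (13.3% higher and 6.67% lower, against 22% and 8.9% of all genes), among them Neurod1 (1.27 ± 0.34, adjusted p = 0.0066), whose IgG WT3 value of 33.2 CPM exceeded YTHDF2 WT3 at 28.6 CPM and whose call held in 10 of 18 alternatives (adjusted p up to 0.49). The neuronal list had a median of -0.12. It summed to 575 to 648 CPM in the YTHDF2 pull-down, 623 to 685 CPM with IgG and 748 to 909 CPM in the input. The single tested microglial marker, P2ry12, had 4.76 to 6.16 CPM in the YTHDF2 pull-down, 2.41 to 4.09 CPM with IgG and 2.75 to 4.6 CPM in the input. It differed by 0.89 ± 0.24, adjusted p = 0.0068, and lost the call without the block, YTHDF2 WT2 or IgG WT2. The part of cell composition in these differences was not tested.

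Among lists with at least 5 tested members, the Zfp-named zinc finger genes had the highest median. Of 322 tested, 214 were called higher (66.5%, against 22% of all genes) and 7 lower, with a median log2 difference of 0.86 and pair medians of 0.74, 0.98 and 0.89. Many encode KRAB repressors of transposons, and their mRNAs are known to turn over fast. Relative to the median of all genes the list stood at 0.93 to 0.95 under each scaling, and 169 were called higher without the block. Their summed level was 19118 to 25914 CPM in the YTHDF2 pull-down, 11081 to 12521 CPM with IgG and 8614 to 9183 CPM in the input. In the separate m6A pull-down 138 of 319 were higher, against 2436 of all 13637 genes tested in both assays (17.9%). The median log2 change of the Zfp-named genes after 4 h of actinomycin D in WT cells was -1.94, against 0.0053 for all genes. With the names in the titles their median log2 difference over IgG turned to -0.22, with 113 called lower.

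Housekeeping lists stood below the median of all genes, with calls to be read against 22% higher and 8.9% lower among all genes. Of 81 cytosolic ribosomal protein genes 1 was higher (Rpl41, 0.40 ± 0.15, adjusted p = 0.042) and 1 lower (Rps6, -0.36 ± 0.13, adjusted p = 0.039), with a median of -0.20. Both calls were lost in 9 of 18 alternatives. The 75 nuclear genes of oxidative phosphorylation had 3 higher (4%) and 4 lower (5.33%), with a median of -0.25, and the 46 proteasome genes 1 higher and 7 lower (15.2%), with a median of -0.26. The proteasome gene called higher was Psmd5, an assembly chaperone (0.84 ± 0.12, adjusted p = 7.4e-06). The 20 aminoacyl-tRNA synthetase genes had 0 higher (0 at an unadjusted p under 0.05, with DESeq2 or with limma) and 7 lower (35%, median -0.28), for example Gars, for glycyl-tRNA (-0.55 ± 0.14, adjusted p = 0.0039). The median of the cytosolic ribosomal genes turned to 0.020 with their own reference and ran from -0.32 to 0.0049 on leaving out a library or a number, and that of the others stayed negative under each. Relative to the median of all genes these lists lay between -0.12 and -0.20. None of the lower calls of these 4 lists remained without the block.

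Mitochondrial ribosomal protein genes differed from the cytosolic ones in their spread. Of 75 tested, 16 were higher (21.3%, close to the 22% of all genes) and 7 lower (9.33%, close to 8.9%), with a range of -0.54 to 2.25. The median was -0.16, with 28 of 75 members above 0. The members named next were among those called higher. Mrpl50 had 351, 413 and 432 CPM in the YTHDF2 pull-down, against 81.9, 87.8 and 80.9 CPM with IgG, a log2 difference of 2.25 ± 0.13, adjusted p = 4.0e-12. Mrps23 and Mrpl41 differed by 1.70 ± 0.14 and 1.21 ± 0.13. The mRNAs of the mitochondrial genome were far below the input in both pull-downs, with medians of -2.18 for YTHDF2 over input and -1.77 for IgG over input on the log2 scale, and -0.33 for YTHDF2 over IgG. For mt-Nd4, a complex I subunit, the libraries held 369.8, 270.4 and 262 CPM in the YTHDF2 pull-down, against 491, 319 and 395 CPM with IgG and 2659, 1748 and 2507 CPM in the input, a log2 difference over IgG of -0.41 ± 0.13, adjusted p = 0.023, lost in 9 of 18 alternatives.

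SR and hnRNP splicing factors had 0 of 26 higher (0 at an unadjusted p under 0.05, with DESeq2 or with limma) and 8 lower in YTHDF2 over IgG (30.8%, against 8.9% of all genes), with a median of -0.27. Their medians over the input were 0.014 with YTHDF2 and 0.25 with IgG, against 0.23 and -0.0071 for all genes. Lower calls in the list numbered 1 without the block, 0 with the ribosomal reference and 20 with RLE size factors. Leaving out a library or a number left 1 to 7 lower. Srsf2, a splicing factor gene that overlaps Mfsd11, had 559, 479 and 558 CPM in the YTHDF2 pull-down, against 762, 795 and 806 CPM with IgG and 85.9, 101 and 107 CPM in the input. Both pull-downs lay well above the input, and YTHDF2 was below IgG without overlap (-0.57 ± 0.13, adjusted p = 0.0014). Snhg11, a host of small nucleolar RNAs, had 447, 519 and 722 CPM in the YTHDF2 pull-down, against 680.2, 803 and 958 CPM with IgG and 56.7, 70.5 and 83.4 CPM in the input, a log2 difference of -0.55 ± 0.12, adjusted p = 0.0014. The calls of Srsf2 and Snhg11 were lost with the ribosomal reference (adjusted p = 0.37 and 0.46). That of Srsf2 was also lost without number 2 (adjusted p = 0.091) and that of Snhg11 without the block (adjusted p = 0.15). Chromatin regulators had 6 of 45 higher and 4 lower (13.3% higher and 8.89% lower, against 22% and 8.9% of all genes), with a median of -0.019 over IgG, 0.81 in YTHDF2 over input and 0.82 in IgG over input. With a library or a number left out, the list had 1 to 11 members higher and 0 to 4 lower, with a median of -0.063 to 0.051. The number higher was 3 without YTHDF2 WT2, 2 without YTHDF2 WT3, 1 without IgG WT2, 3 without IgG WT3, 11 without number 1, 3 without number 2 and 3 without number 3. Without the block 1 was higher. Asxl1, a Polycomb-associated gene, was higher by 1.05 ± 0.15, adjusted p = 5.4e-06, and Brd2, a reader of acetylated histones, by 0.45 ± 0.12, adjusted p = 0.0064, a call that held in 12 of 18 alternatives (adjusted p up to 0.19).

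Of nuclear long noncoding RNAs 3 of 14 were higher and 2 lower (21.4% higher and 14.3% lower, against 22% and 8.9% of all genes), so the share higher was near that of all genes. Peg13, an imprinted noncoding RNA gene within Trappc9, had 219.7, 306 and 319 CPM in the YTHDF2 pull-down, against 35.1, 39.8 and 37.5 CPM with IgG, a log2 difference of 2.89 ± 0.14, adjusted p = 1.5e-13. Airn, the antisense RNA of the imprinted Igf2r locus, had 24.6, 20.5 and 24.7 CPM in the YTHDF2 pull-down, against 9.77, 9.84 and 12 CPM with IgG, a log2 difference of 1.15 ± 0.16, adjusted p = 4.2e-06. Both held in the 18 alternatives, but both overlap protein-coding genes, and reads of overlapping genes cannot be told apart without strand. Among the genes above, Acvr1, Rbm15b, Rbm15, Dcp1a, Zfyve9, Coq6, Zyx, Ccna2, Brd2, Gpr17, P2ry12 and Mrps23 also overlap another named gene in the annotation. Metabolic and matrix lists are set against 22% higher and 8.9% lower among all genes. Of 22 cholesterol synthesis genes 2 were higher (9.09%) and 1 lower, led by Sqle, for squalene epoxidase (0.68 ± 0.13, adjusted p = 0.00018). Of 19 glycolysis genes 2 were higher (10.5%) and 3 lower (15.8%), with the glucose transporter gene Slc2a1 higher (0.94 ± 0.14, adjusted p = 6.6e-06; adjusted p = 0.11 without the block) and Aldoa, for aldolase A, lower (-0.43 ± 0.13, adjusted p = 0.018), a call that held in 9 of 18 alternatives. Of 29 collagen and matrix genes 0 were higher (1 at an unadjusted p under 0.05, 0 with DESeq2 or limma) and 4 lower (13.8%), with a median of -0.32.

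**Figure D4:**
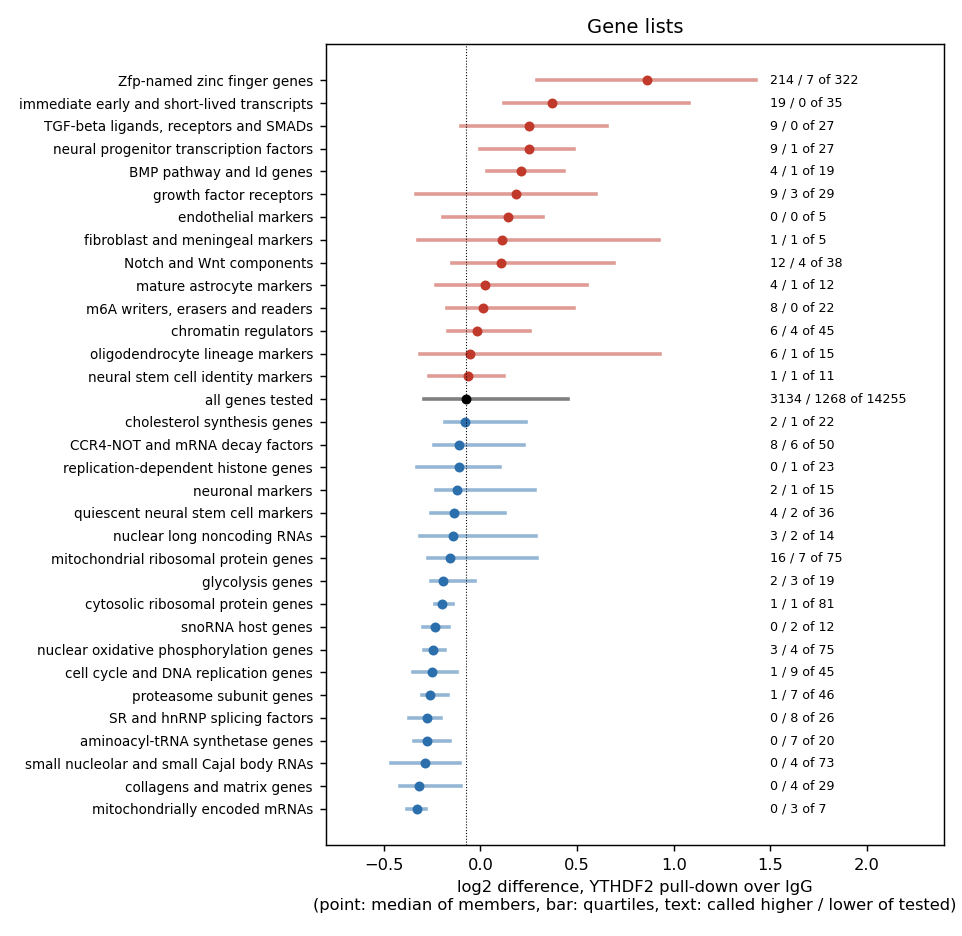
Median (point) and quartiles (bar) of the log2 difference, YTHDF2 pull-down over IgG, for each list with at least 5 tested members, beside the counts called higher and lower. Red lists have a median above that of all genes (-0.077, dotted line) and blue lists below it; Zfp-named genes stand at 0.86 and mitochondrially encoded mRNAs at -0.33.

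Genes enriched with YTHDF2 were compared with the m6A pull-down, which used separate libraries. Of 14167 genes tested there, 2441 were higher in the m6A pull-down than in input (17.2%) and 2932 lower (20.7%). Among 13637 genes tested in both assays, 1329 of the 3071 genes higher with YTHDF2 were higher with m6A (43.3%), against 17.9% of all 13637. Conversely, 54.6% of the m6A-enriched genes were higher with YTHDF2, against 22.5% of all. Of the genes higher with YTHDF2, 52 were lower with m6A (1.69%, against 21.3% of all). Of 1259 genes lower with YTHDF2, 494 were lower with m6A (39.2%) and 112 higher (8.90%). The median m6A log2 difference was 0.25 for genes higher with YTHDF2, -0.15 for genes lower and -0.057 for genes not called.

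The share of m6A-enriched genes climbed with the YTHDF2 difference. It was 4.37% of genes with a log2 difference below -0.5, 17.4% between 0 and 0.25, 32% between 0.5 and 1, 38.8% between 1 and 1.5 and 47.7% above 2. Across genes the 2 differences had a Spearman rho of 0.44 and a Pearson r of 0.38 (13637 genes, which are not independent and share transcript length and level between the assays). Within tertiles of expression level, genes higher with YTHDF2 were m6A-enriched in 10.6%, 39.2% and 69.1%, from low to high, and genes not called in 2.86%, 12.5% and 17.6%. Without the Zfp-named genes the share among genes higher with YTHDF2 was 42.5%. The m6A calls depended on the fit. Without a replicate block in the m6A series 17.8% of the genes higher with YTHDF2 were m6A-enriched, against 6.28% of all, and with library size alone 72.6%, against 39.9%. With the names in the titles the share was 17.9%, close to that of all genes, and the median m6A difference was -0.12.

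Genes enriched with YTHDF2 also had a lower median after transcription was blocked. In libraries labelled WT after 4 h of actinomycin D relative to 0 h, 2194 of 14029 genes were higher (15.6%) and 3402 lower (24.2%), as shares of a total that shrinks. WT and cKO follow the labels of the RNA-seq libraries throughout, although Ythdf2 was higher in those labelled cKO. Genes higher with YTHDF2 had a median log2 change of -0.70, genes lower had 0.32 and genes not called 0.12. Of the genes higher with YTHDF2, 44.8% were called lower at 4 h, against 25% of the 13336 genes tested in both, and 5.86% higher, against 16.2%. By bin of the YTHDF2 difference the median was 0.22 below -0.5, 0.31 between -0.5 and -0.25, -0.97 between 1.5 and 2 and -0.86 above 2. Across genes Spearman's rho was -0.31 (13336 genes). The 3 assays combined as follows: of 1073 genes m6A-enriched and lower at 4 h, 63.2% were higher with YTHDF2; of 1198 m6A-enriched genes not called at 4 h, 48.5%; of 2006 genes lower at 4 h but not called for m6A, 32.9%; and of 5043 genes called in neither, 17.2%. Of 1277 genes lower with m6A and higher at 4 h, 1.33% were higher with YTHDF2.

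**Figure D5:**
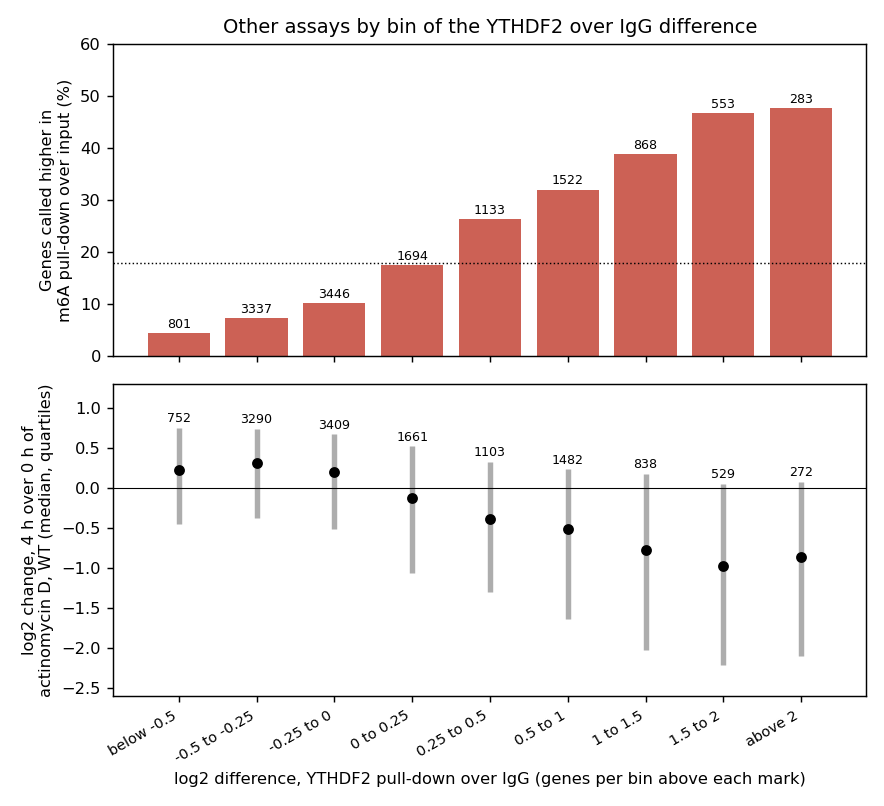
Genes in 9 bins of the log2 difference, YTHDF2 pull-down over IgG. Top: percent of genes called higher in m6A pull-down over input (dotted line, 17.9% of all genes); bottom: median (point) and quartiles (bar) of the log2 change at 4 h over 0 h of actinomycin D in WT cells. The upper bars grow to 47.7% in the bin above 2, and the lower points reach -0.97 in the bin from 1.5 to 2; numbers are genes per bin.

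In the libraries labelled cKO against WT at 0 h, 1082 of 14029 genes were higher (7.71%) and 1387 lower (9.89%). The genotype rests on the labels, and Ythdf2 itself was among the genes higher, for reasons that were not tested. Genes higher with YTHDF2 had a median log2 difference of -0.029 there, genes lower -0.029 and genes not called -0.0028. Of the genes higher with YTHDF2, 8.34% were called higher in cKO and 12% lower. Across genes Spearman's rho was -0.014 (13336 genes).

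Transcript length, taken relative to the median gene from the ratio of deposited counts to TPM, had a median of 1.16 for genes higher with YTHDF2, 0.96 for genes lower and 0.95 for genes not called. It was longest, at 1.20, in the bin from 0.25 to 0.5 and 1.05 above 2, so it did not keep growing with the difference. Genomic span was also longest in that bin, with a median of 30.7 kb, against 23.6 kb for all genes, and it was 14.9 kb in the bin from 1.5 to 2. Within the longest tertile of transcripts 52.6% of genes higher with YTHDF2 were m6A-enriched, against 20.2% of genes not called. Within the shortest tertile these shares were 26.1% and 2.46%. The median change at 4 h of actinomycin D was lower for genes higher with YTHDF2 than for genes not called in each tertile, with -0.26 against 0.51 in the shortest, -0.69 against 0.048 in the middle and -0.94 against -0.30 in the longest.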

How the data were processed

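Neural stem cell RNA was sequenced from YTHDF2, IgG and Input libraries (3 each), with m6A and RNA-seq libraries beside them. The submitters' processing notes name bcl2fastq (2.17.1.14), Trimmomatic (0.32), the aligner STAR (2.5.2a) and the build GRCm38. Which tool counted reads, with which strand setting and annotation, is not given in the sources used here. Per the labels' protocols, libraries of both pull-downs followed a modified SMART-seq3 method and RNA-seq a SMART-seq2 method. The authors deposited whole-number gene counts and TPM values for 26621 symbols.

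Deposited counts were fitted with edgeR's quasi-likelihood test (edgeR 4.0.16, R 4.3.3), TMM scaling and filterByExpr, over all 9 libraries of the YTHDF2 series with the replicate number as a block (4 residual degrees of freedom). Residuals of same-numbered libraries correlated at 0.35 to 0.65, so the numbers pair the libraries. Those of different numbers correlated at -0.40 to -0.014. Residuals cancel out within a group, so this second range is no separate evidence of pairing. The m6A series was fitted likewise, and the RNA-seq libraries without a block. Tests were two-sided with Benjamini-Hochberg adjustment and a threshold of 0.05. CPM use library sizes multiplied by the TMM factors. The authors' TPM entered an alternative with limma 3.58.1 and gave relative transcript length. DESeq2 1.42.0, other scalings, no filter, the names in the titles and leaving out libraries were the other alternatives. Symbols were matched to RefSeq GRCm38.p6 (13860 of 14255 tested), which gave coordinates.

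Named genes were Ythdf2, all tested TGF-beta genes, the 12 called genes with the largest difference in each direction (level of 4 or more, no clone name, groups not overlapping) and members among the 3 of each list with the smallest p, except where stated. Members, gene lists and tests were chosen with earlier results of these data known. No transcript sequences were used here.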

Additional observations from a re-analysis of the deposited data

How the results depend on the processing

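The genes called higher numbered 2040 to 3892 over all alternatives and the genes called lower 4 to 3958. The replicate numbers pair the libraries, and without the replicate block 2040 genes were higher and 47 lower. The other counts of genes lower were 3503 with RLE size factors, 1977 with library size alone, 4 with the ribosomal protein reference, 3255 with DESeq2, 381 and 322 with limma on log2(TPM + 1) and log2(TPM + 0.1), 3567 with the 6 libraries alone and 3958 with the names in the titles. Leaving out a library or a number gave 2141 to 3158 genes higher and 87 to 1037 lower. Of the 3134 genes called higher, 3123 to 3134 kept a positive difference in each alternative but the titles, where 2108 did. Where a count falls, the cause was not tested, except that left-out libraries mean fewer samples.

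Of 110 named genes 91 had a call. Under the 18 alternatives with the column names 46 of 70 higher calls and 0 of 21 lower calls held throughout. Without the block 38 calls were lost. With the names in the titles the direction turned in 35 genes, with log2 differences of 0.55 for Tgfbr1, 0.51 for Tgfbr3, -0.0087 for Acvr2a, -0.57 for Acvr2b, -0.28 for Inhbb, -0.019 for Smad2, -0.63 for Smad7, -0.60 for Skil, -0.47 for Smurf1, -0.63 for Tgif1, -0.47 for Zfyve9, -0.11 for Pmepa1, 0.29 for Itgav, -0.049 for Zfp273, 0.061 for Pxk, 0.22 for Zyx, -0.011 for Acvr1, -0.053 for Hey2, -0.59 for Rbm15, -0.31 for Tob1, -0.81 for Dcp1a, -0.30 for Nr2f1, -0.53 for Birc5, 0.33 for Ccna2, -0.38 for Spry1, -0.31 for Asxl1, -0.24 for Airn, 1.06 for Aldoa, -0.19 for Neurod1, -0.17 for Hes1, -0.34 for Mrpl41, 2.52 for mt-Nd4, 0.58 for Gars, -0.13 for Ythdf1 and -0.015 for Ythdf3. Other turns were -0.022 for Tgfb3, -0.077 for Smurf1 and -0.085 for Pmepa1 with RLE size factors; -0.018 for Tgfb3, -0.078 for Smurf1 and -0.10 for Pmepa1 with DESeq2; 0.12 for Tgfbr3 with no replicate block; 0.16 for Tgfbr3, 0.068 for Smurf2, 0.025 for Ltbp1 and 0.077 for Itgav with ribosomal protein reference; 0.022 for Tgfbr3 with limma on log2(TPM + 1); -0.0021 for Smurf1 and -0.010 for Pmepa1 with library size alone; -0.015 for Smurf1 and -0.049 for Pmepa1 with 6 libraries alone. On leaving out a library or a number, log2 differences spanned -0.10 to 0.40 for Tgfb3, -0.46 to 0.21 for Tgfbr3, -0.042 to 0.57 for Acvr2b, -0.071 to 0.21 for Smurf1 and -0.39 to 0.42 for Pmepa1, all genes with no call.

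The median m6A difference of genes higher with YTHDF2 (0.25) became -0.12 with the names in the titles and 0.46 with library size alone in the m6A fit. That of genes lower (-0.15) became 0.071 and 0.061. The share m6A-enriched among genes higher (43.3%) became 17.8% without a block in the m6A fit, 72.6% with library size alone and 17.9% with the titles, and 45.1% for calls beyond a log2 difference of 1; among genes lower (8.90%) it became 2.14%, 30.5%, 20.7% and 0% (25 genes, median m6A -0.058). Same-numbered m6A libraries had residual correlations of 0.071 to 0.43, so the numbers are not shown to pair there. With 3 libraries a group, the median SE was 0.33 in the lowest tertile of genes by level and 0.13 in the highest, which limits calls of small differences among low genes.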
